A study of Homo sapiens with 26 samples.

Results

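The 6 genes described here encode the TET enzymes TET1, TET2 and TET3, the DNA glycosylase TDG and the UHRF proteins UHRF1 and UHRF2. They were taken by symbol from 18417 genes measured on Affymetrix Human Gene 1.0 ST arrays, and all 6 were measured. Where several array features carried a symbol, the brightest by its mean over all arrays stood for the gene. The cells were NCCIT, a human embryonal carcinoma line, and 26 arrays gave 13 groups of 2. All groups, controls included, were grown in McCoy's 5A medium with serum and transfected with siRNA using the reagent PepMute.

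Of the 11 groups with siRNA against members of the DNA methyltransferase (DNMT) family, 4 had a single siRNA: siDNMT1, siDNMT3A, siDNMT3B and siDNMT3L. Another 3 joined DNMT1 siRNA to that against DNMT3A (siD1+3A), DNMT3B (siD1+3B) or both (siD1+3A+3B). The remaining 4 had no DNMT1 siRNA: DNMT3A siRNA went with that against DNMT3B (3A+3B) or DNMT3L (3A+3L), DNMT3B siRNA with that against DNMT3L (3B+3L), or all went together (3A+3B+3L). The 2 control groups, siNTC-1 and siNTC-2, received control siRNA. The labels give no time after transfection, and they do not say whether the arrays of a group came from separate cultures. All p-values therefore measure the spread between these arrays, which may be technical, and with 2 arrays a group that number limits the precision.

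DNA methylation in mammals is a balance. TET enzymes oxidise methylated cytosine to hydroxymethyl-, formyl- and carboxylcytosine, TDG cuts out the formyl and carboxyl forms, and base excision repair puts back an unmodified cytosine. UHRF1 recognises CpG sites methylated on a single strand after replication and brings DNMT1 to them, while UHRF2 is its paralogue. TET1 and TET2 are the forms known from mouse embryonic stem cells, and TET3 is known from the mouse oocyte and zygote.

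RefSeq promoter windows, each of 300 bases from 250 before a transcription start to 50 after it (build GRCh38.p14), matched all 6 genes with 12 windows. The first window of each of the 3 genes whose levels varied most between groups is shown. The sequences are printed 5′ to 3′ with CpG sites, the substrate of active DNA methyltransferases and the TET enzymes, in capitals. They lie on the plus strand at chr2:73984660-73984959 for TET3, chr12:103965622-103965921 for TDG and chr19:4909251-4909550 for UHRF1.
TET3: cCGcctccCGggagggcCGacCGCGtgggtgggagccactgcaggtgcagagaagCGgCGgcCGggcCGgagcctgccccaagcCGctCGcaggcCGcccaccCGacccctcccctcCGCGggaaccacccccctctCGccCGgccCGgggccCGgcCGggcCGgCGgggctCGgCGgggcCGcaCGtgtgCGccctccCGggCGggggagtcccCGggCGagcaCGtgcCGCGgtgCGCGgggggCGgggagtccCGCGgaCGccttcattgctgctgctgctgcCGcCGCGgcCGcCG
TDG: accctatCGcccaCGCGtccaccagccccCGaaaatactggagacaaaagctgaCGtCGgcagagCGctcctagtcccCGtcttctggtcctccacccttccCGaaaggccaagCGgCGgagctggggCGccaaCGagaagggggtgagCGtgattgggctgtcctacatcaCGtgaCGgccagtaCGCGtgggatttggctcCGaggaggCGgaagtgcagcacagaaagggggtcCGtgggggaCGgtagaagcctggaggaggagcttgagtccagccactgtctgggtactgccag
UHRF1: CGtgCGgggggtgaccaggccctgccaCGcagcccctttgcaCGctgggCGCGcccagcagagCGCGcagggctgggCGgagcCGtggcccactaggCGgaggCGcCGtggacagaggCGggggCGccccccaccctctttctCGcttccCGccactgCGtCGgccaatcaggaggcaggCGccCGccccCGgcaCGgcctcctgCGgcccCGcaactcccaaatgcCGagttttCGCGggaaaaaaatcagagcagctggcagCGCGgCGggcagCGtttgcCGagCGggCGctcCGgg

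The TET3 window held 45 CpG sites, the TDG window 22 and the UHRF1 window 36, against a median of 14 and quartiles of 4 and 28 over 35116 windows of the same length. The other windows of TET3 and UHRF1 held 33, 40 and 46, the UHRF2 window 26, the TET2 windows 13 and 35, and the TET1 windows 10, 6 and 11. The letters GCGGGAA, the core recognised by E2F factors of the cell cycle, were searched on both strands and occurred in 6.55% of all windows. The printed UHRF1 window held 2 matches, at position -14 on the plus strand and -104 on the minus strand, and the printed TET3 window held 1, at -132. The letters TGATGNAA, a C/EBP-ATF element of stress-induced genes, occurred in 3.62% of all windows and in none of the 12 windows of the 6 genes. A match is a run of letters and not a shown site of binding.

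The siRNA targets checked the labels first. DNMT1 lay between 8.70 and 9.28 on the 8 arrays with its siRNA, against 9.96 to 10.22 on the other 18 (log2 expression, the unit of all levels here). DNMT3A lay between 6.64 and 7.01 on the 12 arrays with its siRNA, against 7.23 to 7.59 on the other 14. DNMT3B lay between 10.98 and 11.69 with its siRNA, against 11.66 to 12.17 on the other 14. In the group labelled 3A+3B+3L it differed from siNTC-2 by -0.01 (adjusted p = 0.951) and from siNTC-1 by -0.32 (adjusted p = 0.000501). DNMT3L, a dim feature, lay between 5.36 and 5.66 with its siRNA, against 5.47 to 6.20 without, and it was lower in siDNMT1 (-0.40 from siNTC-1, adjusted p = 0.0203, and -0.42 from siNTC-2, adjusted p = 0.00684). In siDNMT3B it also lay below all control arrays (-0.31 from siNTC-1, adjusted p = 0.0586, and -0.33 from siNTC-2, adjusted p = 0.0282). Of 12 embryonal carcinoma markers 9 were measured, and all 9 lay above the median gene (6.8), from TNFRSF8 at 6.92 to SOX2 at 12.33. All 5 endoderm and all 5 fibroblast markers lay below it. Of the trophoblast and neural markers only TFAP2C and NES lay above it.

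The arrays fell into 2 sets on the first principal component, which held 49.5% of the variance over genes and 35.3% over features without a symbol. The siNTC-1 side comprised siDNMT1, siDNMT3B, siDNMT3L and siNTC-1. The siNTC-2 side comprised the other 8 depletions and siNTC-2. This split was read from expression, no label states it, and its source cannot be told apart from the groups within each side. In bulk RNA, fewer cells of a type and less RNA per cell cannot be told apart. In siNTC-2 against siNTC-1, 44.7% of all genes differed at an adjusted p under 0.05, and so did 4 of the 6 genes described here. TET3 was higher by 0.86 (adjusted p = 1.87e-07) and TET2 by 0.42 (adjusted p = 0.00142) in siNTC-2. UHRF1 fell by 0.49 (adjusted p = 0.000253) and UHRF2 fell by 0.17 (adjusted p = 0.0213) in siNTC-2, a call lost without replicate 1 of siNTC-1 (-0.11) or of siNTC-2 (-0.10). TDG differed by -0.27 (adjusted p = 0.128) and TET1 by -0.01 (adjusted p = 0.902).

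For that reason a depletion was counted as changing a gene only if the limma fit over all 26 arrays gave an adjusted p under 0.05 against each control group with the same sign. A second reading set each depletion against the control on its own side. Among the 66 pairs of a gene and a depletion, 3 were called against both controls, all lower, a share of 4.55%. Over all genes the share among single depletions was 12.1% in siDNMT3B, 9.85% in siDNMT3L, 9.27% in siDNMT1 and 6.8% in siDNMT3A. With DNMT1 siRNA in the mixture 8.68% were called in siD1+3B, 8.15% in siD1+3A and 6.01% in siD1+3A+3B. In the other mixtures 7.61% were called in 3A+3L, 7.61% in 3A+3B+3L, 5.86% in 3B+3L and 4.98% in 3A+3B. With the brighter TET2 feature, used here for the gene, the share of the 6 genes was below each of these backgrounds, the lowest of them by little. With the dimmer TET2 feature described below it was 10 of 66, or 15.2%, above each background, so the reading depends on which feature stands for TET2. Against the control on the same side 12 of 66 pairs were called, 9 lower and 3 higher, or 18.2%. The background of that reading was 24.2% in siDNMT3B, 19.8% in siDNMT1, 19.2% in siDNMT3L and 15.8% in siDNMT3A. It was 25% in siD1+3B, 22.8% in siD1+3A and 18.6% in siD1+3A+3B, and 23.3% in 3A+3B+3L, 22.4% in 3A+3L, 12.6% in 3A+3B and 10.1% in 3B+3L. The share of the 6 genes lay within this range.

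**Figure D1:**
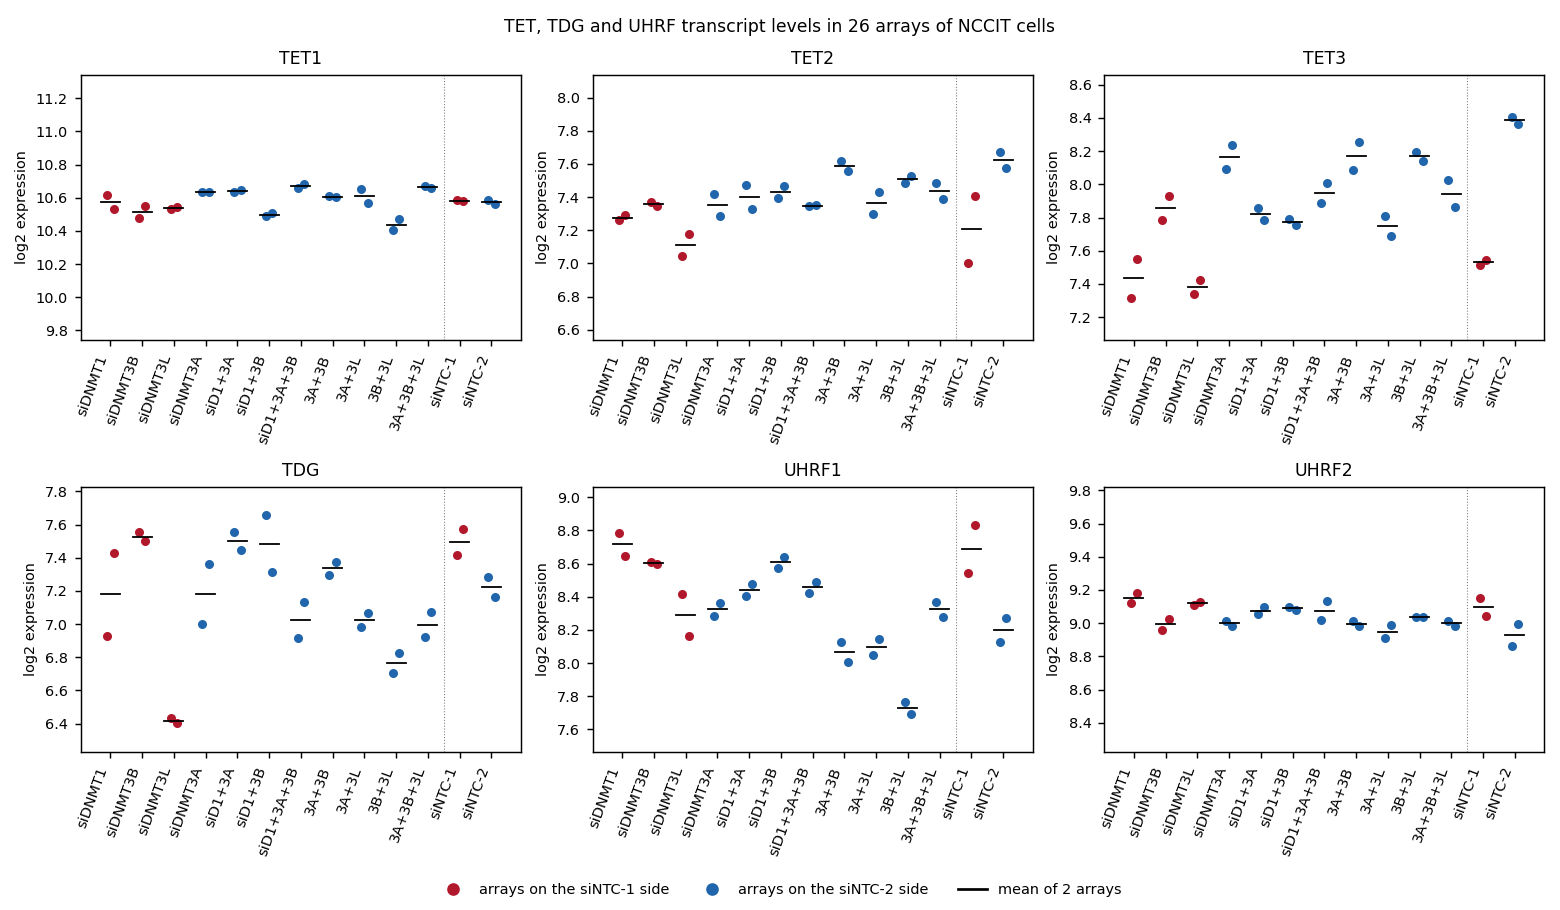
Log2 expression of each gene on all 26 arrays (vertical axes span the same number of log2 units), depletions left and the 2 control groups right of the dotted line, with bars at the mean of 2 arrays and colour for the side of the split. TDG on the 2 siDNMT3L arrays, at 6.43 and 6.40, and UHRF1 on the 2 arrays of 3B+3L, at 7.77 and 7.69, lay below all other arrays of the gene, and TET3 on the 2 siNTC-2 arrays, at 8.41 and 8.37, lay above all others.

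The 6 genes split by how far they moved. The range of the 13 group means was 1.11 for TDG, 1.01 for TET3 and 0.99 for UHRF1, which placed them at the 96.2, 94.5 and 94.1 percentile of all genes. It was 0.51 for TET2, 0.23 for TET1 and 0.22 for UHRF2, at the 65.5, 11.3 and 9.38 percentile, against a median range of 0.41. The pooled SD within groups was 0.158 for TDG, 0.0878 for TET3, 0.0976 for UHRF1, 0.101 for TET2, 0.0311 for TET1 and 0.0484 for UHRF2, against 0.0827 for the median gene. The ranges include the difference between the sides.

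TET1, whose protein carries a CXXC domain that binds unmethylated CpG, as full-length TET3 does, stayed within a narrow band. Its array values ran from 10.40 to 10.68 and its differences from the control on the same side from -0.14 to 0.09, with standard errors of 0.05. None was called. The highest means were 10.67 ± 0.02 in siD1+3A+3B and 10.67 ± 0.01 in 3A+3B+3L, and the lowest was 10.44 ± 0.05 in 3B+3L (SD, n = 2 each). The controls stood between them, with 10.58 and 10.57 in siNTC-2 and 10.58 on both siNTC-1 arrays. The 6 groups that received DNMT3A siRNA held the 6 highest means of TET1 (10.61 to 10.67), and 4 of the 12 neighbouring pairs in the order of groups were separate. This grouping was noticed after the values were seen and carries no test. All 6 groups lie on the siNTC-2 side, and TET1 was called in none of them against either control. The share of all genes with such an order of groups was not computed, so whether it is particular to TET1 cannot be told. The arrays of 3A+3L, at 10.65 and 10.57, overlapped the controls. In 3B+3L, TET1 was 10.40 and 10.47. The difference was -0.15 against siNTC-1 (adjusted p = 0.0135) and -0.14 against siNTC-2 (adjusted p = 0.0648).

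TET2, whose protein lacks a CXXC domain, was measured by 2 features that disagreed. On the brighter feature the 2 siNTC-1 arrays differed, at 7.01 and 7.40, and the siNTC-2 arrays were at 7.67 and 7.57. In 10 of 11 depletions the difference was positive against one control and negative against the other, and none was called against both controls. On the same side the differences ran from -0.27 to 0.15 and none was called. Without siNTC-1 replicate 1 the count on the same side was 6, and without siNTC-1 replicate 2 it was 7. The lowest TET2 mean, 7.11 ± 0.09 (SD, n = 2) in siDNMT3L, came from values of 7.05 and 7.18.

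On the dimmer TET2 feature the control groups differed by 0.01 (siNTC-2 minus siNTC-1, adjusted p = 0.867), and every depletion lay below them. The 22 depletion arrays ran from 7.08 to 7.42 with a median of 7.26, against 7.44 to 7.50 on the 4 control arrays, so the groups did not overlap. Of all 19460 features with 1 symbol, 0.37% had all 22 depletion arrays below all 4 control arrays. The mean of the 11 depletions minus the mean of the controls was -0.22 ± 0.03 (SE, adjusted p = 5.81e-05), or 85.9% of the control level. This contrast was added after the values were seen, and 32.5% of features passed it. The greatest difference was in siDNMT3L, with 7.19 and 7.08 against 7.44 and 7.49 in siNTC-1, a difference of -0.33 (adjusted p = 0.000869), and of -0.35 against siNTC-2 (adjusted p = 0.000134). In siDNMT3A the values were 7.38 and 7.36, and the differences of -0.10 and -0.11 from the controls had adjusted p of 0.198 and 0.248.

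The dimmer TET2 feature was called against both controls in 7 of 11 depletions, lower in all 7. These were siD1+3A, siD1+3B, siD1+3A+3B, siDNMT3B, siDNMT3L, 3A+3L and 3A+3B+3L. Over all features with 1 symbol the share called in them was 8.05%, 8.72%, 6%, 11.9%, 9.73%, 7.56% and 7.49% in that order. The 4 depletions without a call were siDNMT1, siDNMT3A, 3A+3B and 3B+3L, with shares of 9.16%, 6.82%, 4.88% and 5.73%. On the brighter TET2 feature the same contrast of all depletions with all controls gave -0.03 (adjusted p = 0.653), and 32.7% of genes passed it. Of the other 5 genes only TDG passed it, at -0.23 (adjusted p = 0.0291). Which transcripts each TET2 feature covers was not tested, and 22 arrays of 11 groups were set against only 4 of 2 groups.

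TET3, the third TET enzyme, moved with the side and within it. In the depletions on the siNTC-1 side it was 7.32 and 7.55 in siDNMT1, 7.78 and 7.93 in siDNMT3B, and 7.34 and 7.42 in siDNMT3L, against 7.51 and 7.55 in siNTC-1. Among these only siDNMT3B stood clear of its control, by 0.33 (95% CI 0.15 to 0.50, adjusted p = 0.0086). That call was lost without siDNMT3B replicate 2 (0.25).

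On the siNTC-2 side both siNTC-2 arrays, at 8.41 and 8.37, were above all depletion arrays. TET3 was 7.81 and 7.69 in 3A+3L, 7.79 and 7.76 in siD1+3B, and 7.86 and 7.79 in siD1+3A. It was 7.89 and 8.01 in siD1+3A+3B and 8.02 and 7.86 in 3A+3B+3L. In these 5 groups it fell by 0.64, 0.61, 0.57, 0.44 and 0.44 against siNTC-2, with adjusted p between 2.29e-05 and 0.00114, and all 5 calls held under each of 33 alternatives. In siDNMT3A it was 8.09 and 8.24, in 3A+3B 8.09 and 8.26, and in 3B+3L 8.20 and 8.14, each -0.22 from siNTC-2 with adjusted p of 0.0861, 0.112 and 0.117. Against siNTC-1 all 8 groups of this side were higher by 0.22 to 0.64 and passed. TET3 was therefore called in opposite directions against the 2 controls in 6 of 11 depletions, and it had no call against both with 1 sign.

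**Figure D2:**
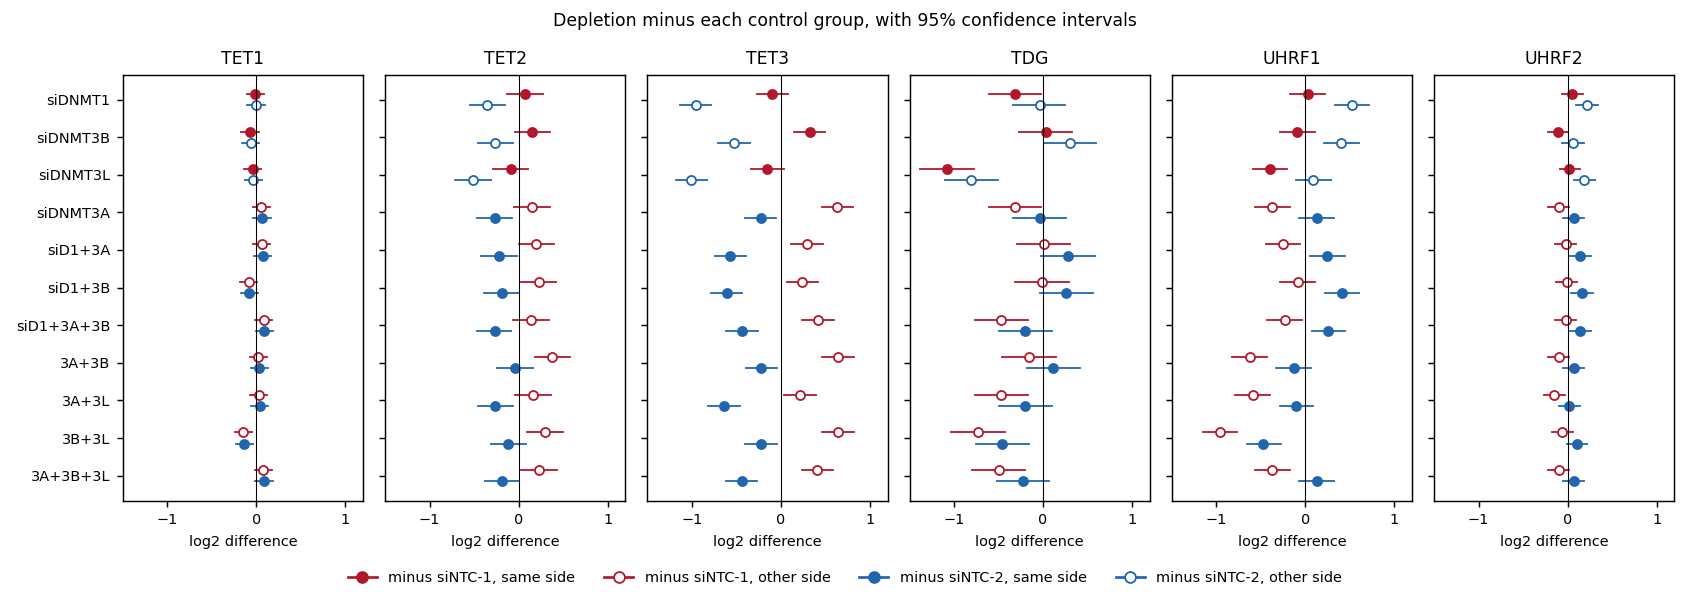
Difference of each depletion (rows) from siNTC-1 (red) and siNTC-2 (blue) in log2 units with 95% confidence intervals, filled where the control is on the same side. For TET3 the 8 depletions of the siNTC-2 side lay to the right of 0 against siNTC-1 and to the left of 0 against siNTC-2, while TDG in siDNMT3L lay to the left against both, at -1.08 and -0.81.

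TDG, the glycosylase that acts after the TET enzymes, was lowest in siDNMT3L. It was 6.43 and 6.40 there, against 7.41 and 7.58 in siNTC-1 and 7.28 and 7.16 in siNTC-2. All values in siDNMT3L lay below all other arrays. The level was 47.3% of siNTC-1 (log2 difference -1.08, 95% CI -1.38 to -0.78, adjusted p = 3.13e-05) and 57.2% of siNTC-2 (-0.81, 95% CI -1.10 to -0.51, adjusted p = 0.000124). Both calls held in all 33 alternatives, with differences from -1.16 to -0.75.

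In 3B+3L, TDG was 6.70 and 6.83, below all control arrays. It fell by 0.73 against siNTC-1 (adjusted p = 0.000315) and by 0.46 against siNTC-2 (adjusted p = 0.0476). The second of these lost its call in 18 of 33 alternatives, each with 1 array left out and with values from -0.52 to -0.40. These were either array of any group but siNTC-1, siDNMT1, siDNMT3A and siD1+3B. In 3A+3L it was 6.98 and 7.07 and in 3A+3B+3L 6.92 and 7.07, again below all control arrays. These groups differed from siNTC-1 by -0.47 and -0.50 (adjusted p = 0.0125 and 0.00903) and from siNTC-2 by -0.20 and -0.23 (adjusted p = 0.378 and 0.3).

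Across the series, TDG on the 8 arrays with DNMT3L siRNA ran from 6.40 to 7.07 with a median of 6.87, against 6.92 to 7.66 with a median of 7.37 on the 18 arrays without. All 8 lay below the lowest control array, as did 4 of the 14 other depletion arrays. This grouping was noticed after the values were seen and carries no test. The share of all genes with such a grouping was not computed, so whether it is unusual cannot be told. The 4 others were 1 array each of siDNMT1 and siDNMT3A and both of siD1+3A+3B, at 6.92 and 7.13. Duplicates of TDG differed more than those of the other 5 genes, with 6.93 and 7.43 in siDNMT1 and 7.66 and 7.31 in siD1+3B. No depletion was called higher. TDG has a processed copy in the genome, TDGP1, and whether the probes tell them apart was not tested.

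UHRF1, the reader that brings DNMT1 to replicated DNA, was lowest in 3B+3L. It was 7.77 and 7.69 there, against 8.13 and 8.27 in siNTC-2 and 8.55 and 8.83 in siNTC-1, and no other array of the series was as low. It fell by 0.47 against siNTC-2 (95% CI -0.66 to -0.27, adjusted p = 0.00302), to 72.4% of its level. It fell by 0.96 against siNTC-1 (95% CI -1.15 to -0.77, adjusted p = 1.17e-07). The call against siNTC-2 was lost without siNTC-2 replicate 2 (-0.39) and in a fit of only the groups compared.

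Against the control on its side UHRF1 was also called in siD1+3B and siDNMT3L. In siD1+3B it was 8.58 and 8.64, a difference of 0.41 from siNTC-2 (adjusted p = 0.00273) and of -0.08 from siNTC-1 (adjusted p = 0.518). In siDNMT3L it was 8.42 and 8.16, a difference of -0.40 from siNTC-1 (adjusted p = 0.00501) and of 0.09 from siNTC-2 (adjusted p = 0.453). The call against siNTC-1 was lost without siNTC-1 replicate 2 (-0.26), without siDNMT3L replicate 2 (-0.27) and with only the groups compared. In siDNMT1, where its partner is depleted, UHRF1 was 8.79 and 8.65, which differed from siNTC-1 by 0.03 (95% CI -0.17 to 0.22, adjusted p = 0.872) and from siNTC-2 by 0.52 (adjusted p = 0.000148). A second UHRF1 feature was dim, between 4.19 and 4.73 on all arrays, and was not used.

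UHRF2, the paralogue of UHRF1, had array values from 8.87 to 9.18. On the same side its differences ran from -0.11 to 0.16, and 1 was called. In siD1+3B it was 9.09 ± 0.01, against 8.93 ± 0.09 in siNTC-2 (SD of 2 arrays), higher by 0.16 (adjusted p = 0.0454), and the call was lost in 16 of 33 alternatives. These were a fit of only the groups compared, the loss of siNTC-2 replicate 1 (0.09) and the loss of either array of 3A+3B, 3B+3L, 3A+3B+3L, siDNMT3A, siDNMT3L, siD1+3B or siD1+3A. Against siNTC-1 that group differed by -0.01 (adjusted p = 0.925). The highest mean was 9.15 ± 0.04 in siDNMT1 (SD, n = 2), 0.05 above siNTC-1 (adjusted p = 0.543).

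Pairs of groups whose labels differ by 1 siRNA were compared without a control group. The groups of a pair could also differ in a target whose siRNA both had. DNMT1 had a mean of 8.98 in siD1+3B and of 9.24 in siD1+3A+3B. A difference is therefore not that of the added siRNA alone. On the siNTC-2 side there are 9 such pairs. DNMT1 siRNA on top of DNMT3A siRNA (siD1+3A minus siDNMT3A, 9.62% of genes called) went with lower TET3, at 7.86 and 7.79 in siD1+3A against 8.09 and 8.24 in siDNMT3A (-0.34, adjusted p = 0.0156). The call was lost without either siD1+3A array or siDNMT3A replicate 2 and with only the groups compared. DNMT1 siRNA on top of 3A+3B (3.19% of genes called) went with higher UHRF1, at 8.46 ± 0.05 in siD1+3A+3B against 8.07 ± 0.09 in 3A+3B (0.39, adjusted p = 0.0258). That call was lost with any array of the 2 groups left out and with only the groups compared. DNMT3B was also higher there, at 11.50 and 11.44 in siD1+3A+3B against 11.19 and 11.26 in 3A+3B, though both had its siRNA. Its part in the call was not tested.

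DNMT3A siRNA on top of 3B+3L (18.9% of genes called) gave 2 calls. UHRF1 was 8.37 and 8.28 in 3A+3B+3L, against 7.77 and 7.69 in 3B+3L, higher by 0.59 (95% CI 0.40 to 0.79, adjusted p = 0.000155). TET1 was 10.67 and 10.66 in 3A+3B+3L, against 10.40 and 10.47 in 3B+3L, higher by 0.23 (adjusted p = 0.00148). Both calls held in all 33 alternatives. DNMT3B was 11.63 and 11.69 in the group labelled 3A+3B+3L, against 11.28 and 11.14 in 3B+3L. Of 27 DNA replication genes, 10 were higher and 1 lower in 3A+3B+3L, and of 12 integrated stress response genes 11 were lower. The part of these in the 2 calls was not tested. DNMT3A siRNA on top of siD1+3B (3.02% of genes called) gave none, with -0.15 for UHRF1 (adjusted p = 0.482), 0.17 for TET1 (adjusted p = 0.0522) and -0.46 for TDG (adjusted p = 0.0959).

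DNMT3B siRNA was added in 3 pairs and gave no call among the 6 genes. The background was 0.57% of genes on top of siD1+3A, 0.0923% on top of siDNMT3A and 0.0977% on top of 3A+3L. DNMT3L siRNA on top of siDNMT3A (10.1% of genes called) went with lower TET3, at 7.81 and 7.69 in 3A+3L against 8.09 and 8.24 in siDNMT3A (-0.42, adjusted p = 0.00382). That call was lost without siDNMT3A replicate 2 (-0.35). TDG was not called in that pair, at -0.15 (adjusted p = 0.558). In both pairs with a TET3 call, 11 of 12 integrated stress response genes were lower. As many were lower in 3A+3B+3L minus 3A+3B and in 3A+3B+3L minus 3B+3L, and 10 in siD1+3A+3B minus 3A+3B. In these pairs TET3 differed in the same direction but was not called, with -0.23, -0.22 and -0.22 (adjusted p = 0.11, 0.0748 and 0.172). DNMT3L siRNA on top of 3A+3B (9.42% of genes called) gave no call, with -0.23 for TET3 (adjusted p = 0.11) and -0.34 for TDG (adjusted p = 0.166).

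**Figure D3:**
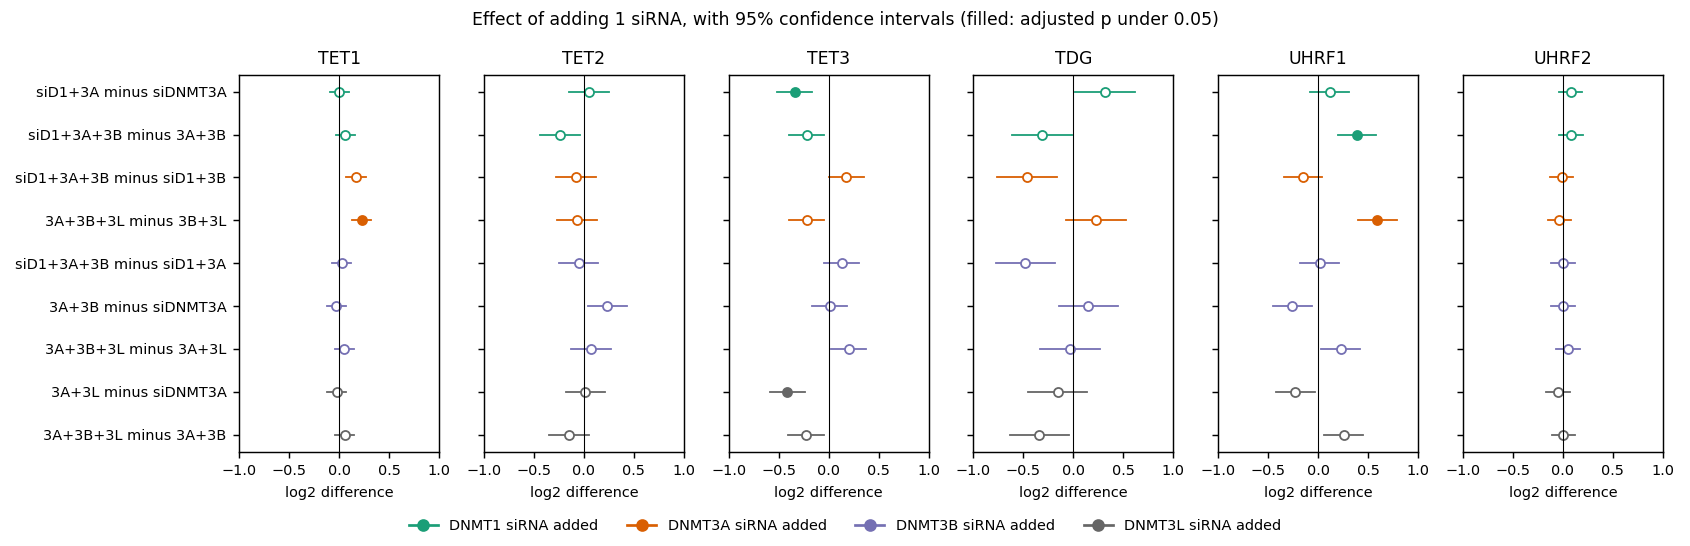
Difference between groups whose labels differ by 1 siRNA, in the 9 pairs on the siNTC-2 side. Values are in log2 units with 95% confidence intervals, coloured by the added siRNA and filled at an adjusted p under 0.05. The 5 filled points are TET3 at -0.34 and -0.42, UHRF1 at 0.39 and 0.59 and TET1 at 0.23.

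The difference between 2 additions of the same siRNA was written in 6 ways, of which 4 are distinct contrasts, a choice made after the data were examined. Only the contrast of DNMT3A siRNA, on top of siD1+3B against on top of 3B+3L, had calls among the 6 genes, and 14.8% of all genes were called in it. UHRF1 differed by -0.74 (95% CI -1.02 to -0.47, adjusted p = 0.000695), TDG by -0.69 (95% CI -1.11 to -0.27, adjusted p = 0.0255) and TET3 by 0.40 (95% CI 0.15 to 0.65, adjusted p = 0.0303). UHRF1 held in all 33 alternatives. TDG lost its call without siD1+3B replicate 1 (-0.52), siD1+3A+3B replicate 1 (-0.58), 3B+3L replicate 1 (-0.63) or 3A+3B+3L replicate 2 (-0.62). TET3 lost its call without either array of siD1+3B or 3B+3L, siD1+3A+3B replicate 2 (0.34) or 3A+3B+3L replicate 2 (0.32). The levels of DNMT3B and of the stress response genes given above for 3A+3B+3L and 3B+3L enter this difference, and their part in it was not tested. The other 3 contrasts had backgrounds of 0.076%, 0.0977% and 0.0326%. The first is read from the side of DNMT1 or of DNMT3B siRNA, the second is of DNMT3B siRNA, and the last is read from the side of DNMT3B or of DNMT3L siRNA.

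The 3 single depletions on the siNTC-1 side were compared directly. TET3 was higher in siDNMT3B than in siDNMT3L by 0.48 (adjusted p = 0.00111), and it fell by 0.42 in siDNMT1 against siDNMT3B (adjusted p = 0.00189). TDG was higher in siDNMT1 by 0.76 (adjusted p = 0.00166) and in siDNMT3B by 1.11 (adjusted p = 5.63e-05) than in siDNMT3L. UHRF1 was higher in siDNMT1 by 0.43 (adjusted p = 0.00501) and in siDNMT3B by 0.31 (adjusted p = 0.0358) than in siDNMT3L. Without siDNMT3L replicate 2 both UHRF1 calls were lost (0.30 and 0.19), the first also without siDNMT1 replicate 1 and the second without either siDNMT3B array. With only the groups compared, each of these calls on UHRF1 and TET3 and that on TDG in siDNMT1 was lost. TET1, TET2 and UHRF2 had no call in the 3 pairs. The share of all genes called was 18.3% for siDNMT1 against siDNMT3B, 12.6% for siDNMT1 against siDNMT3L and 10.8% for siDNMT3B against siDNMT3L.

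Genes that work beside the 6 were counted in lists. The share of all genes called against both controls was 4.98% to 12.1% by depletion. Of 12 excision repair genes, 0 to 2 per depletion were called higher and 1 to 2 lower against both controls. In siD1+3A 2 were higher and 1 lower, with 8.15% of all genes called, and in siDNMT1 0 and 1, with 9.27%. Whether a list exceeded the share of all genes was not tested. MBD4, a glycosylase that also removes thymine opposite guanine, fell by 0.39 in siDNMT1 against siNTC-1 (adjusted p = 3.65e-05) and rose by 0.32 in 3A+3L against siNTC-2 (adjusted p = 0.000182). Of 9 measured TET partners and cofactor genes, 0 to 3 were called higher and 0 to 2 lower. In siDNMT3B 3 were higher and 1 lower, with 12.1% of all genes called, and in 3A+3B 0 and 0, with 4.98%. CXXC5, a CXXC protein known to bind TET2, was higher by 1.06 in siDNMT3B (adjusted p = 6.35e-10) and by 0.72 in siDNMT1 (adjusted p = 1.24e-07) against siNTC-1, and by 0.62 in siD1+3B against siNTC-2 (adjusted p = 3.74e-07). OGT, which binds all 3 TET proteins, was higher by 0.51 in siNTC-2 than in siNTC-1 (adjusted p = 4.9e-08).

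Of 12 partners of maintenance methylation, 0 to 1 were called higher and 0 to 2 lower against both controls. PCNA, the clamp at the replication fork, fell by 0.58 in siNTC-2 against siNTC-1 (adjusted p = 3.43e-07), as UHRF1 did. Of the 12 partners 3 were higher and 4 lower in that comparison, with 44.7% of all genes called. Of 27 DNA replication genes, 19 were lower and 4 higher in siNTC-2 against siNTC-1, with a median of -0.29. Against both controls 1 to 6 were called lower and 0 to 1 higher. The 6 were in 3B+3L, where UHRF1 was lowest and 5.86% of all genes were called. In siDNMT1, where UHRF1 had its highest mean, 5 were lower and 1 higher, with 9.27% of all genes called. In 3B+3L the median of the list was -0.11 against siNTC-2, and that of all genes 0. These lists were chosen with earlier results known, and they support no call.

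Integrated stress response genes, targets of the factor ATF4, separated the sides, and on the siNTC-2 side their levels ran alongside TET3. In siNTC-2 against siNTC-1, 11 of 12 were higher, with a median of 1.66, against -0.02 for all genes. Against siNTC-1, 9 were lower in siDNMT1, 5 in siDNMT3B and 6 in siDNMT3L, with 19.8%, 24.2% and 19.2% of all genes called. The same numbers were lower against both controls, which adds little, since 11 of 12 were higher in siNTC-2 than in siNTC-1. TET3 was higher in siDNMT3B than in siNTC-1, by 0.33, while none of the 12 was higher. Against siNTC-2, 11 of 12 were lower in each of the 5 groups in which TET3 fell, with medians from -1.57 to -0.72. In siDNMT3A and 3A+3B 7 and 6 were lower, with medians of -0.38 and -0.27, and in 3B+3L none was lower and 1 was higher. The share of all genes called against siNTC-2 was 18.6% to 25% in the 5 groups. It was 15.8% in siDNMT3A, 12.6% in 3A+3B and 10.1% in 3B+3L. None of the 12 was called lower against both controls in any of these groups. In the 5 groups the list's mean, at 8.62 to 9.38, lay above that of siNTC-1 (8.41). Over the 9 group means of the siNTC-2 side the list's mean and TET3 gave r = 0.91 and rho = 0.87. Without siNTC-2 and 3A+3B+3L, the groups farthest from the median of the list, r was 0.98. That value leaves out the group that went against the relation. In 3A+3B+3L the list's mean was the lowest of the side (8.62), with TET3 at 7.94, above siD1+3A (7.82), siD1+3B (7.77) and 3A+3L (7.75). The points share the 18 arrays of that side and their scale, and 12 such relations of a gene and a list were computed. The part of these genes in the TET3 differences was not tested.

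For UHRF1 and the DNA replication genes r was 0.81 and rho 0.6 over the same 9 groups, and r was 0.34 without 3B+3L and siD1+3B. That relation rests on these groups. For UHRF1 and the stress genes r was -0.59, and for TDG it was -0.25.

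**Figure D4:**
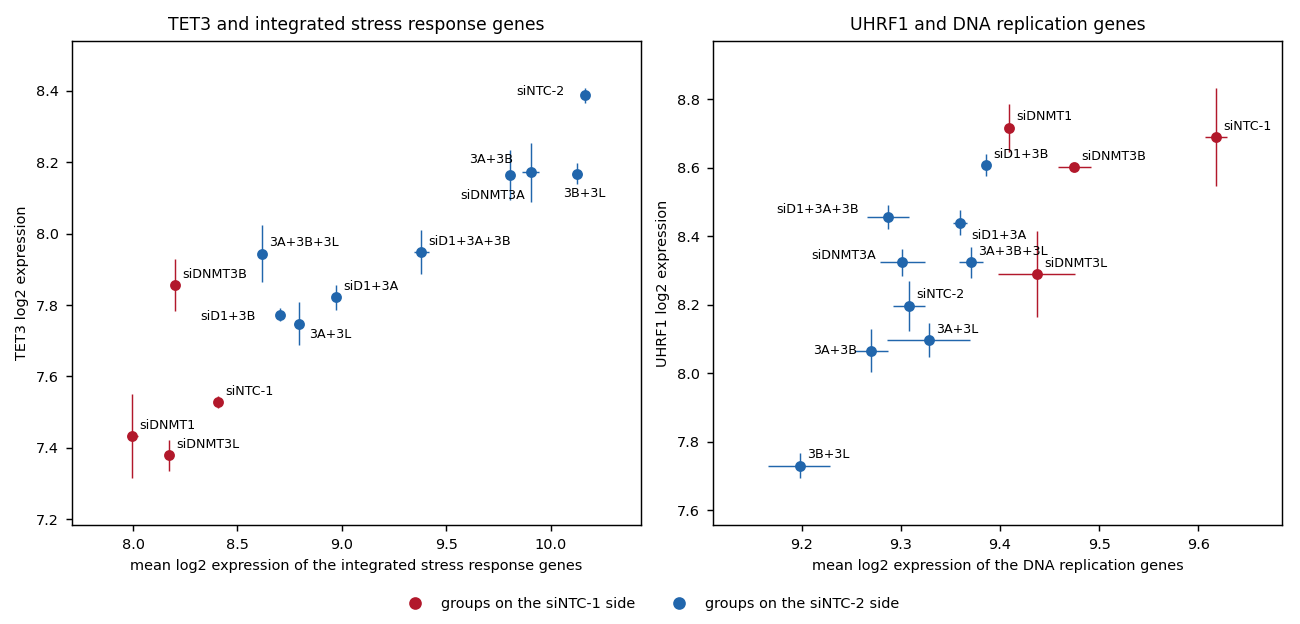
Group means of TET3 against the mean of 12 integrated stress response genes (left) and of UHRF1 against 27 DNA replication genes (right), in log2 expression, with bars from the lower to the higher array and colour for the side. On the siNTC-2 side TET3 and the stress genes rose broadly together up to siNTC-2 (8.39). The group 3A+3B+3L lay off that line, with the lowest stress mean of the side (8.62) and TET3 at 7.94. In the right panel 3B+3L (7.73) stood alone at the lower left.

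Genes with the pattern most like each of the 6 were sought over the 13 group means, each centred on the mean of its side. For TET3 they were ZDHHC9 (r = 0.942), IGF2R (0.922) and SLC35E2A (0.921). For UHRF1 they were HNRNPR (r = 0.934), CTSC (0.925) and MLLT11 (0.92), and for TDG SSH2 (r = 0.912), PON2 (0.9) and KIF2C (0.888). For TET1 they were NAA16 (r = 0.903), SND1-IT1 (0.896) and ANKS1A (0.876), for TET2 CIRSR (0.903), LINC01667 (0.879) and PKNOX1 (0.868), and for UHRF2 ANPEP (0.896), LYG2 (0.889) and FER1L6-AS2 (0.867). They are the 3 highest of 18417 genes in each case, and no gene of the 6 was among those of another.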

How the data were processed

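Total RNA was measured on 26 Affymetrix Human Gene 1.0 ST arrays in 13 groups of 2. The deposited table holds 1 value per feature and array, between 3.04 and 14.87 with array medians of 6.28 to 6.33, which fits a log2 scale that was not centred by gene. The submitters' processing notes name Partek. The sources used here do not give the summarisation, normalization, log base or genome build. Of 33297 features, 19460 carried 1 symbol in the platform annotation, 1754 several and 12083 none, and the feature with the highest mean stood for each of 18417 genes.

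One limma fit (version 3.58.1, R 4.3.3) of 13 group means over 26 arrays left 13 residual degrees of freedom. P-values were adjusted by Benjamini-Hochberg over all genes within a contrast, with a threshold of 0.05. Genes to name were the 6 members, up to 3 of each list by adjusted p in a comparison, the siRNA targets and the 3 genes of highest correlation with each member. The members, lists, split and tests were chosen with earlier results of these data known. The contrast of all depletions with all controls and the differences between additions were added after the data were examined. The fit was tested on simulated data. Alternatives were other controls, a filter on the 40% dimmest genes, quantile normalization, a trended and robust prior, array weights, a replicate block, all features with 1 symbol, only the groups compared and each array left out. Promoter windows came from RefSeq.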

Additional observations from a re-analysis of the deposited data

Results flagged for a closer look

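In 1 test of a difference between differences, adding DNMT3A siRNA to siD1+3B was set against adding it to 3B+3L. TET3 differed by 0.40, TDG by -0.69 and UHRF1 by -0.74 (log2), each with an adjusted p under 0.05 in limma, and 14.8% of all genes passed the same test. For UHRF1 the addition gave -0.15 on top of siD1+3B and 0.59 on top of 3B+3L. For TDG it gave -0.46 and 0.23, and for TET3 0.17 and -0.22.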

How the results depend on the processing

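No called result reversed its sign under any alternative run, which were 33 for each result (37 for counts against both controls, 31 for the dimmer TET2 feature). TET1 in siNTC-2 minus siNTC-1, not called, was 0.04 with quantile normalization, against -0.01. With the dimmer TET2 feature in place of the brighter, TET2 had 7 calls against both controls, all lower. The counts of calls against both controls rested on the choice of control. With the mean of the 4 control arrays they were 1 for TET1, 1 for TET2, 6 for TET3, 4 for UHRF1 and 1 for UHRF2. TDG was then called in siDNMT3L, 3B+3L and 3A+3B+3L (adjusted p = 9.6e-06, 0.000989 and 0.0374 in limma). With siNTC-1 alone they were 1 for TET1, 2 for TET2, 9 for TET3, 5 for TDG, 7 for UHRF1 and 1 for UHRF2, and with siNTC-2 alone 3 for TET2, 8 for TET3, 4 for UHRF1 and 3 for UHRF2. With the control on the same side they were 6 for TET3, 3 for UHRF1 and 1 for UHRF2. Genes not named for a control kept their count, which was 2 for TDG and 0 for TET1 and TET2. Small relative shifts of a count are left out below, such as TET3 on the same side, 5 to 7 over the alternatives.

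Without the 40% dimmest genes, with a trended and robust prior and with array weights, TET1 had 1 call against both controls, 1 on the same side and 2 additions. Quantile normalization gave TET1 2 additions as well. On the same side TET2 had 3, 3 and 4 calls under those first 3 settings. UHRF1 had 5 under each of the 4, and UHRF2 had 3 without the dimmest genes and 2 with quantile normalization or array weights. UHRF2 had 1 pair of single depletions without the dimmest genes, with quantile normalization and with a trended prior. Array weights gave 4 additions for TET3, 3 for TDG and 1 pair of single depletions for UHRF1, and a trended prior gave 1 addition for TDG. With only the groups compared, additions were 1 each for TET3, TDG and UHRF1, and single pairs were 0 for TET3, 1 for TDG and 0 for UHRF1. That setting left UHRF1 with 0 calls against both controls and 1 on the same side, and UHRF2 with 0 on the same side. In siNTC-2 minus siNTC-1 it gave 0.42 for TET2 (adjusted p = 0.0542) and -0.17 for UHRF2 (adjusted p = 0.178), and array weights gave -0.17 for UHRF2 (adjusted p = 0.0502). It fits fewer arrays, and the cause of the other changes was not tested.

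With 1 array left out, calls against both controls ranged from 0 to 1 for TET2, 1 to 2 for TDG and 0 to 1 for UHRF1. Calls on the same side ranged from 0 to 7 for TET2, 1 to 3 for TDG, 2 to 5 for UHRF1 and 0 to 3 for UHRF2. Additions ranged from 1 to 2 for TET1, 0 to 3 for TET3, 0 to 1 for TDG and 1 to 2 for UHRF1, and single pairs from 0 to 1 for TET2, 0 to 2 for UHRF1 and 0 to 1 for UHRF2. UHRF2 in siNTC-2 minus siNTC-1 ranged from -0.23 to -0.10, and its call was lost without siNTC-1 replicate 1 or siNTC-2 replicate 1. A lone array was taken to vary like the other groups.

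Arrays with the same replicate number did not deviate together, with correlations from -0.26 to 0.19 (median 0) over 78 pairs of groups. The values show no shared shift by replicate number. Whether samples of 1 number were prepared together cannot be told from them. With the replicate block, calls against both controls were 2 for TDG, 1 for UHRF1 and 0 for TET3, and TDG in 3B+3L minus siNTC-2 was -0.46. No count of calls moved beyond the small relative shifts left out above. The 2 arrays of each group limit the precision, and DNMT3L is the dimmest of the 4 targets.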

Other observations

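The 15 pairs among the 6 genes were set against each other over the 9 group means of the siNTC-2 side, as a description with no p. TET2 and TET3 had r = 0.7 (rho = 0.58), TDG and UHRF1 r = 0.65 (rho = 0.42), and UHRF1 and UHRF2 r = 0.46 (rho = 0.67). TET1 and TET2 had r = -0.4 (rho = -0.62). The points share arrays and scale, and 2 groups, 3B+3L and siD1+3B, lie at the ends of UHRF1.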
